A study of Homo sapiens with 32 samples.

Results

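The genes described here carry the signals of the TGF-beta superfamily: the ligands of the TGF-beta, BMP, activin and nodal branches, the secreted proteins that trap them, their receptors, the SMAD proteins with their regulators, and the ID and MIXL1 target genes. They were taken by symbol, by the pattern TGFB, BMP, BAMBI, ACVR, INHB, SMAD, SMURF, LEFTY, TDGF, GDF, CER1, FST, CHRD, NOG, GREM, LTBP, ID, SKI, ENG, RGM, HIPK, ZFYVE, PMEPA1, FOXH1, EOMES and MIXL1, with antisense genes left out. The pattern took 55 of the 7978 genes in the deposited count table, which hold 168 of its 26104 merged m6A peaks. Of the 55 members, 14 were of the ligand families, 4 were traps or antagonists, 11 were receptors or co-receptors, 4 were SMADs, 10 were SMAD regulators and 5 were targets. The ligand families include BMP1, a protease and no ligand, and LEFTY1 and LEFTY2, which are nodal antagonists. The other 7 (BMP2K, SKIC2, SKIDA1, ZFYVE1, ZFYVE19, ZFYVE26 and ZFYVE27) share a name stem with the pathway and are not known to act in it.

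The study followed the human embryonic stem cell lines H1 and MEL1 through directed differentiation towards pancreatic β-like cells and profiled N6-methyladenosine (m6A), a methyl mark on mRNA, by immunoprecipitation (IP) of fragmented mRNA with an input library kept from each preparation. Cells were sampled undifferentiated in E8 medium (S0) and at S3, S4 and S6, which the study names posterior foregut, pancreatic progenitors and immature β-like cells. Each line and stage had 2 replicates, so that 16 input and 16 IP libraries were analysed. Nothing in the labels says that replicates came from separate cultures, although the study calls them independent biological samples, so that the p-values measure the spread between these samples. By the study's methods the cells passed through GDF8 with CHIR-99021 first and FGF7 next, then TPB, SANT-1, retinoic acid, FGF7 and LDN-193189 up to S3, and FGF7, SANT-1 and retinoic acid up to S4. A following stage had SANT-1, retinoic acid, LDN-193189, T3, ALK5 inhibitor II, zinc sulfate and heparin. The last had LDN-193189, T3, ALK5 inhibitor II, GSiXX and zinc sulfate, and then T3, ALK5 inhibitor II, zinc sulfate, N-Cys, Trolox and R428. Several of these agents act on the pathway itself: GDF8 is an activin-type ligand, LDN-193189 inhibits BMP type I receptors, and ALK5 inhibitor II inhibits the TGF-beta type I receptor.

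As background, the ligands bind pairs of type I and type II serine/threonine kinase receptors, which phosphorylate SMAD2 and SMAD3 for TGF-beta, activin and nodal, and SMAD1, SMAD5 and SMAD9 for BMPs. The phosphorylated SMADs join SMAD4, enter the nucleus and act on target genes, among them the ID genes for BMP signals and LEFTY, CER1 and SMAD7 for nodal and TGF-beta signals, several of which feed back on the pathway. Activin and nodal signals hold human embryonic stem cells in the undifferentiated state and at higher dose turn them towards endoderm, while BMP signals are blocked in many pancreatic protocols because they favour liver fate.

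The table holds counts in merged peaks, so that a gene without a merged peak has no value in it. Among 102 genes listed by role for the pathway, 47 had no merged peak, including SMAD1, SMAD2, SMAD4, SMAD6, TDGF1, FOXH1, EOMES, PMEPA1, INHBA, FST, CHRD and GREM1, and nothing is said of them here. Counts per library ran from 2652830 to 6879256 in input (median 4318760) and from 2378881 to 15674899 in IP (median 13100407). Both MEL1 IP libraries at S4 were shallow, with 2483580 and 2378881 counts. The members took 0.105% to 0.294% of the input counts and 0.408% to 1.013% of the IP counts. Input levels below are CPM (counts scaled to one common library total) summed over the merged peaks of a gene, after TMM scaling. Stage and line changes are compared only within a gene. Where CPM are summed or ranked across genes, as for the markers, no correction for length or number of merged peaks was made. Such sums and ranks describe counts, not numbers of transcripts. The 4 values for a stage are always in the order H1 replicate 1, H1 replicate 2, MEL1 replicate 1, MEL1 replicate 2. In bulk RNA, fewer cells of a type and less RNA per cell cannot be told apart.

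Many known markers differed between the lines and some were alike, and they are given here for reading the results below. The sum of the hepatic markers (AFP, APOA1, APOB and VTN, 4 of 6 listed; ALB and TTR had no merged peak) was 443, 451, 32507 and 28543 CPM at S3 and 200.2, 146, 62578 and 65715 at S4, with APOA1 the most abundant over the series. At S6 the hepatic sum was 93.6, 84.0, 2972 and 2883. MEL1 thus held a far higher hepatic sum than H1 at S3, S4 and S6. In both lines the sum was lower at S6 than at S4. SOX2, over the series the most abundant undifferentiated marker (5 of 7 listed; POU5F1 and NANOG had no merged peak), stood at 1332, 1317, 1079 and 974 at S0, 825, 836, 6.51 and 25.5 at S3 and 612, 568, 176 and 214 at S6. SOX2 stayed high in H1 and was low in MEL1 after S0, which not all of the list did: L1TD1 stood at 874, 821, 2192 and 1644 at S0, 67.2, 76.8, 22.5 and 21.9 at S3 and 12.1, 10.6, 52.3 and 50 at S6, low in both lines, and LIN28A at 105, 109.8, 125 and 106 at S6, alike in both. The sum of the 5 markers went from 3474, 3356, 5149.6 and 4365 at S0 to 1495, 1546, 300 and 311 at S3. The foregut sum (FOXA1, FOXA2, GATA4, GATA6 and HNF4A) was 10.9, 12.3, 12.3 and 13.3 at S0 and 1017, 975, 2967 and 2922 at S3. It was higher in every library of both lines at S3. HNF4A was the most abundant over the series through MEL1, at 48.3, 46.8, 939 and 878 at S3. In H1 it lay below FOXA2 at that stage (381 and 373). For the pancreatic progenitor list (4 of 5; NKX6-1 had no merged peak) the sum was 101, 102, 43.7 and 45.7 at S4, higher in H1, and 40.1, 36.4, 164 and 161 at S6, higher in MEL1, with SOX9 the most abundant over the series. PDX1 was 21.5, 19.5, 16.8 and 17.3 at S4, close in the lines, and 3.02, 2.21, 67.2 and 57.7 at S6, low in H1. ONECUT1 stood at 27.9, 30.7, 1.26 and 1.11 at S4 and 14.7, 12.6, 18.7 and 18.2 at S6, so that the lines were far apart at S4 and close at S6. The endocrine sum (4 of 7; CHGB, NEUROD1 and PAX6 had no merged peak) was 240.4, 249, 63.5 and 76.8 at S0, 1982, 1813, 375 and 444 at S3, 1178, 901, 1197 and 1313 at S4 and 2608, 2645, 5008 and 5177 at S6. The readthrough gene INS-IGF2 was the most abundant over the series. It was as high in H1 at S3 (1962, 1786, 368 and 435) as at S6 (1786, 1850.3, 4269.9 and 4429). CHGA, at 233, 243, 62.3 and 73.1 at S0, made up most of the sum there. At S3 CHGA was lower, at 18.9, 22.2, 4.25 and 1.81, while the sum was higher through INS-IGF2. The sum at S3 thus rested on a readthrough gene and is not taken as a measure of endocrine cells. At S4 the lines lay opposite, with CHGA at 625, 484, 56.3 and 50.5 and INS-IGF2 at 549, 405, 1128 and 1248. CHGA at S6 was 810, 781, 721 and 727, and ISL1 at S6 was 1.95, 0.882, 1.87 and 3.63. ISL1 and GLIS3 had no count at S0.

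Lists for other cell types also differed by line. The mesenchymal sum (5 of 9 genes, with no merged peak for COL3A1, COL6A3, LUM and DCN) was 70.6, 95.7, 791 and 723 at S4, high in MEL1. COL1A1, the most abundant over the series (33.3, 37.6, 630 and 586 at S4), and COL1A2 (25.2, 32.5, 130 and 110) carried that difference. PDGFRB differed little (5.18, 8.50, 10.5 and 9.22), and TWIST1 was 2.22, 12.1, 17.6 and 14.4. PDGFRA was lower in MEL1 (4.69, 5.08, 3.36 and 3.69). At S6 the sum was 234, 242, 252 and 259, close in the lines. The neural sum (STMN2 and NEFL, 2 of 5, with no merged peak for MAP2, DCX and TUBB3) was 42.5, 41.3, 57.1 and 49.1 at S4, somewhat higher in MEL1. At S6 it was 721, 715, 155 and 175, high in H1, and both genes were at 0 in MEL1 at S3. NEFL was the more abundant over the series. In MEL1 STMN2 lay above NEFL at S4 (51.3 and 43.9 against 5.88 and 5.16) and S6 (90.8 and 103 against 64.6 and 72.2). The intestinal factor CDX2 was at 12.4, 15.0, 441 and 404 at S3 and 84.9, 84.9, 490.4 and 436 at S6, higher in MEL1. The endothelial list had KDR alone of 4 genes (PECAM1, CDH5 and TEK had no merged peak), at 37.4, 43.4, 47.5 and 29.6 at S0 and 6.21, 6.39, 0.373 and 6.05 at S6. The part of these cell types in the stage changes and line differences of the pathway genes was not tested.

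Between S0 and S3 BMP2, BMP4, BMP5 and TGFB2 rose, as did the pseudoreceptor BAMBI, and INHBE and the BMP targets ID1 and ID3 fell. The BMP target ID2 rose, chiefly in MEL1. ID4 was not called, its changes being opposite in the lines. The antagonists LEFTY2, CER1 and NOG were called higher over both lines as well, while their changes in MEL1 alone were −0.65, −0.06 and −2.02. None of these was called in MEL1 alone (edgeR adjusted p = 0.131, 0.942 and 0.478 in turn). NOG in MEL1 held 1 count at S0 and 0 at S3. Of the 55 members, 18 were called, 15 higher and 3 lower at S3, where a call is an edgeR quasi-likelihood test with Benjamini-Hochberg adjusted p under 0.1 over all genes and a change of at least 2-fold. The same rule called 28.8% of all genes tested, 15.0% higher and 13.8% lower, so that the 18 of 55 lie near that share while the higher calls outnumber the lower ones. The median log2 fold change was 0.64 over the members and −0.02 over the 7973 genes tested. By role, 8 of 14 members of the ligand families were called (7 higher), or 6 of 11 (5 higher) without BMP1, LEFTY1 and LEFTY2. Called were also 2 of 4 traps or antagonists (CER1 and NOG), 2 of 11 receptors, 1 of 4 SMADs, 1 of 10 SMAD regulators and 3 of 5 targets (1 higher, 2 lower). From S3 to S4 just 3 members were called, all higher (INHBE, NOG and ID3), against 1.84% of all genes and 1.49% for higher calls, and the medians were 0.12 over the members and 0.02 over all genes. That count ran from 1 to 5 when 1 library was left out: it was 5 without H1 S4 replicate 1 (2.43% of all genes called) and 1 without MEL1 S3 replicate 1 (0.916%), MEL1 S3 replicate 2 (1.28%) or MEL1 S4 replicate 2 (1.12%). The count over all genes was thus 194, 73, 102 and 89 in turn, against 147 with all libraries, and moved the same way.

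From S4 to S6 more of the calls were lower than higher. Of the 55 members, 11 were called, 3 higher and 8 lower, against 5.18% of all genes, 2.85% higher and 2.33% lower. The medians were close, at −0.10 over the members and −0.03 over all genes. GDF15, BMP5 and TGFBR2 rose, and LEFTY2, CER1, SKIL, BAMBI, ACVR1, SMAD7, BMP1 and INHBE fell. The count was 6 without MEL1 S6 replicate 1 and likewise 6 without MEL1 S6 replicate 2, where the count over all genes went from 413 to 266 and 265 (3.34% and 3.32%). Over S6 vs S0, 24 members were called, 20 higher and 4 lower, against 31.4% of all genes, 17.5% higher and 13.8% lower, with medians of 0.58 over the members and 0.03 over all genes. The comparisons share samples (S3 and S4 libraries enter 2 each, and the S0 and S6 libraries likewise), so that their counts are not independent. In all, 32 members (58.2%) were called in at least 1 comparison and 23 in none, against 42.2% of all genes called at least once.

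**Figure D1:**
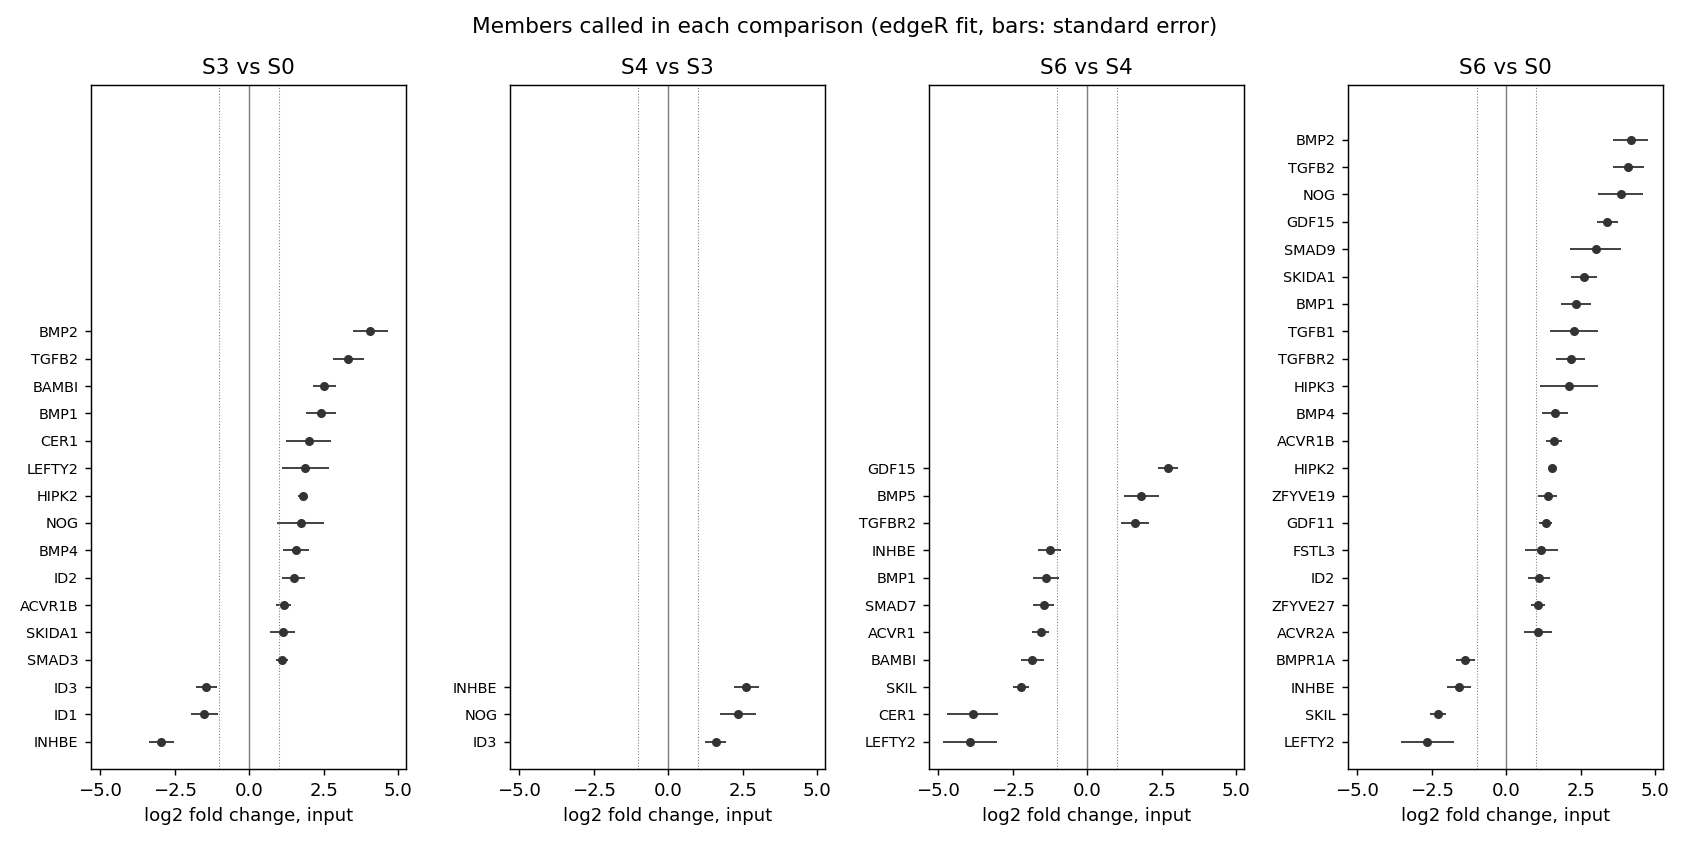
Log2 fold change in input (horizontal axis) with its standard error for the members called in each of 4 stage comparisons, from the edgeR fit with n = 4 libraries a stage; dotted lines mark a 2-fold change. BMP5 and TGFB3 against S0, where no library held a count, are not drawn. Higher calls dominate S3 vs S0 (15 of 18 called) and S6 vs S0 (20 of 24), and lower calls S6 vs S4 (8 of 11).

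Among the ligands, BMP2 rose early and stayed high. It stood at 8.70, 8.87, 4.11 and 6.96 CPM at S0, 71.1, 54.0, 294 and 395 at S3, 42.0, 73.9, 373 and 439 at S4 and 54.9, 65.7, 339 and 461 at S6. All 4 libraries at each later stage lay above the 4 at S0, and MEL1 lay above H1 from S3 on. BMP2 rose at S3 (log2 fold change 4.07 ± 0.59 (SE), edgeR adjusted p = 7.65e-05) and stood above S0 at S6 (4.17 ± 0.60 (SE), edgeR adjusted p = 5.61e-05). The changes differed by line: at S3 they were 2.83 in H1 and 5.96 in MEL1 (edgeR adjusted p for the line difference = 1.48e-05). BMP4, a BMP ligand that patterns mesoderm and ectoderm in the embryo, had 15.7, 12.7, 20.4 and 27.6 CPM at S0, 61.3, 63.2, 29.8 and 55.5 at S3, 89.4, 77.1, 76.5 and 73.8 at S4 and 22.0, 20.7, 108 and 109 at S6. Its H1 libraries were high at S3 and S4 and back near the S0 range at S6, while both MEL1 libraries were highest at S6. BMP4 rose in S3 vs S0 (1.57 ± 0.45 (SE), edgeR adjusted p = 0.0111) and in S6 vs S0 (1.63 ± 0.45 (SE), edgeR adjusted p = 0.00835). These changes differed by line, H1 minus MEL1, by 1.29 and −1.59 in turn. The S3 vs S0 call was lost in MEL1 alone and the S6 vs S0 call in H1 alone. From S4 to S6 no change over both lines was called, and the change was −1.96 in H1 and 0.53 in MEL1 (edgeR adjusted p for the line difference = 1.17e-05).

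BMP5, another BMP ligand, had no count in any S0 library, 1.38, 0.824, 1.25 and 0.903 CPM at S3, 1.48, 3.15, 0 and 0.369 at S4 and 6.21, 6.62, 2.99 and 2.42 at S6. Every S3 and S6 library thus held reads and no S0 library did. By the lower 95% limit of the exact ratio of counts, BMP5 was at least 4.84-fold higher at S3 (20 counts, edgeR adjusted p = 0.00285) and at least 24.6-fold higher at S6 (79 counts, edgeR adjusted p = 0.000117). Against a floor of 3 counts over the 4 S0 libraries, which takes the later counts as exact, the folds were 6.54 and 30.9. Its rise from S4 to S6 (1.81 ± 0.59 (SE), edgeR adjusted p = 0.0959) was lost when any of 7 libraries was left out in turn, each of the S4 and S6 libraries but H1 S4 replicate 2, with adjusted p up to 0.191. Floors and intervals here cover counting error only. BMP1, which despite its name is a procollagen C-proteinase that also cleaves the antagonist chordin, had 3.38, 4.09, 3.50 and 1.52 CPM at S0, 19.3, 15.4, 10.5 and 21.0 at S3, 14.3, 20.4, 88.2 and 68.2 at S4 and 13.9, 14.6, 22.8 and 14.5 at S6. The S3 and S6 libraries all lay above those at S0, and the MEL1 libraries at S4 stood far above the rest. BMP1 rose in S3 vs S0 (2.40 ± 0.49 (SE), edgeR adjusted p = 0.00132) and in S6 vs S0 (2.35 ± 0.50 (SE), edgeR adjusted p = 0.00142). Its fall from S4 to S6 (−1.38 ± 0.45 (SE), edgeR adjusted p = 0.0857) was −0.31 in H1 and −2.06 in MEL1 (edgeR adjusted p for the line difference = 0.0125). That call was lost without either S6 replicate of H1, either S4 replicate of MEL1 or either S6 replicate of MEL1, with adjusted p up to 0.249.

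The TGF-beta ligands had few reads at S0. TGFB2 had 4.35, 4.77, 0.206 and 0.435 CPM at S0, 40.0, 43.1, 8.76 and 6.99 at S3, 24.2, 35.4, 16 and 24.7 at S4 and 35.5, 39.9, 23.9 and 31.1 at S6. H1 reached its range by S3, and MEL1, nearly without reads at S0, came up to it by S6. TGFB2 rose at S3 (3.33 ± 0.51 (SE), edgeR adjusted p = 0.000115) and stood higher at S6 than at S0 (4.10 ± 0.52 (SE), edgeR adjusted p = 1.93e-05). The S6 vs S0 change was 3.04 in H1 and 6.31 in MEL1 (edgeR adjusted p for the line difference = 0.000995), where MEL1 at S0 held 3 counts in all. TGFB1 had 1.45, 1.82, 0.206 and 1.96 CPM at S0, 3.35, 3.30, 4.25 and 6.32 at S3, 2.22, 5.08, 27.3 and 75.6 at S4 and 4.08, 2.65, 7.84 and 18.6 at S6. Both MEL1 libraries stood apart at S4, and its S6 libraries lay above those at S0. TGFB1 was called higher in S6 vs S0 (2.26 ± 0.81 (SE), edgeR adjusted p = 0.0335), which was lost without MEL1 S0 replicate 1 or MEL1 S0 replicate 2 (adjusted p up to 0.112). TGFB3 had no count at S0 and 0.197, 0, 0.250 and 0.677 CPM at S3. With 5 counts at S3 the fold against the same floor was 1.63, and the lower limit of the ratio was 0.898, so that counting error alone allows no difference. It was called higher by edgeR (adjusted p = 0.0903), a call lost without H1 S3 replicate 1, MEL1 S0 replicate 1, MEL1 S0 replicate 2 or MEL1 S3 replicate 2 (adjusted p up to 0.202) and in DESeq2 (adjusted p = 0.321).

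GDF15, a divergent family member known as a stress-induced hormone, stood at 7.25, 7.05, 24.7 and 40.0 CPM at S0, 7.09, 4.53, 34.0 and 44.7 at S3, 7.90, 12.8, 47.9 and 63.4 at S4 and 35.3, 39.0, 462 and 675 at S6. Within each line the S6 libraries lay above all earlier ones, and MEL1 lay above H1 at every stage. GDF15 rose from S4 to S6 (2.70 ± 0.34 (SE), edgeR adjusted p = 0.000296) and stood above S0 at S6 (3.39 ± 0.35 (SE), edgeR adjusted p = 2.87e-06). The S6 vs S4 change was 1.79 in H1 and 3.35 in MEL1 (edgeR adjusted p for the line difference = 0.00484). GDF11, a ligand close to GDF8 that restrains endocrine precursors in the mouse pancreas, had 50.2, 59.6, 61.9 and 54.0 CPM at S0 and 156, 165, 113 and 132 at S6. The S6 libraries did not overlap those at S0, and GDF11 rose (1.31 ± 0.21 (SE), edgeR adjusted p = 0.000176).

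INHBE, which encodes the activin beta E subunit, moved both ways. It had 21.5, 17.7, 26.3 and 31.8 CPM at S0, 3.55, 1.85, 1 and 6.09 at S3, 25.9, 24, 14.3 and 12.5 at S4 and 7.81, 7.94, 8.22 and 8.47 at S6. The S3 libraries lay below those of every other stage. INHBE fell at S3 (−2.94 ± 0.42 (SE), edgeR adjusted p = 6.32e-05), rose at S4 (2.62 ± 0.42 (SE), edgeR adjusted p = 0.00545) and fell at S6 (−1.26 ± 0.39 (SE), edgeR adjusted p = 0.0747), where it stood below S0 (−1.58 ± 0.39 (SE), edgeR adjusted p = 0.00424). The S6 vs S4 call was lost without either H1 S4, either H1 S6 or either MEL1 S6 replicate (adjusted p up to 0.171).

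LEFTY2, a secreted nodal antagonist that is itself a nodal target, had 7.25, 7.96, 17.5 and 17.8 CPM at S0, 60.7, 61.0, 9.01 and 14.2 at S3, 20.7, 12.5, 51.3 and 42.8 at S4 and 0.178, 0, 2.99 and 6.86 at S6. It was high in H1 at S3 and in MEL1 at S4, and low in all libraries at S6. LEFTY2 fell from S4 to S6 (−3.93 ± 0.90 (SE), edgeR adjusted p = 0.0187) and lay below S0 at S6 (−2.65 ± 0.90 (SE), edgeR adjusted p = 0.026). Its call in S3 vs S0 (1.88 ± 0.79 (SE), edgeR adjusted p = 0.0696) came with changes of 2.99 in H1 and −0.60 in MEL1 (edgeR adjusted p for the line difference = 3.16e-06). That call was lost without any 1 of the 4 H1 libraries or MEL1 S0 replicate 2 (adjusted p up to 0.167), with only the 8 libraries of the comparison (adjusted p = 0.225), and MEL1 alone gave −0.65. LEFTY1 was called in no comparison over both lines, yet its S6 vs S4 change was −2.90 in H1 and 3.74 in MEL1 (edgeR adjusted p for the line difference = 2.96e-08). Its mean was 0.597 CPM in H1 and 110.5 in MEL1 at S6. LEFTY1 and LEFTY2 are near-identical copies, so that reads may have been split between them and both results are uncertain.

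**Figure D2:**
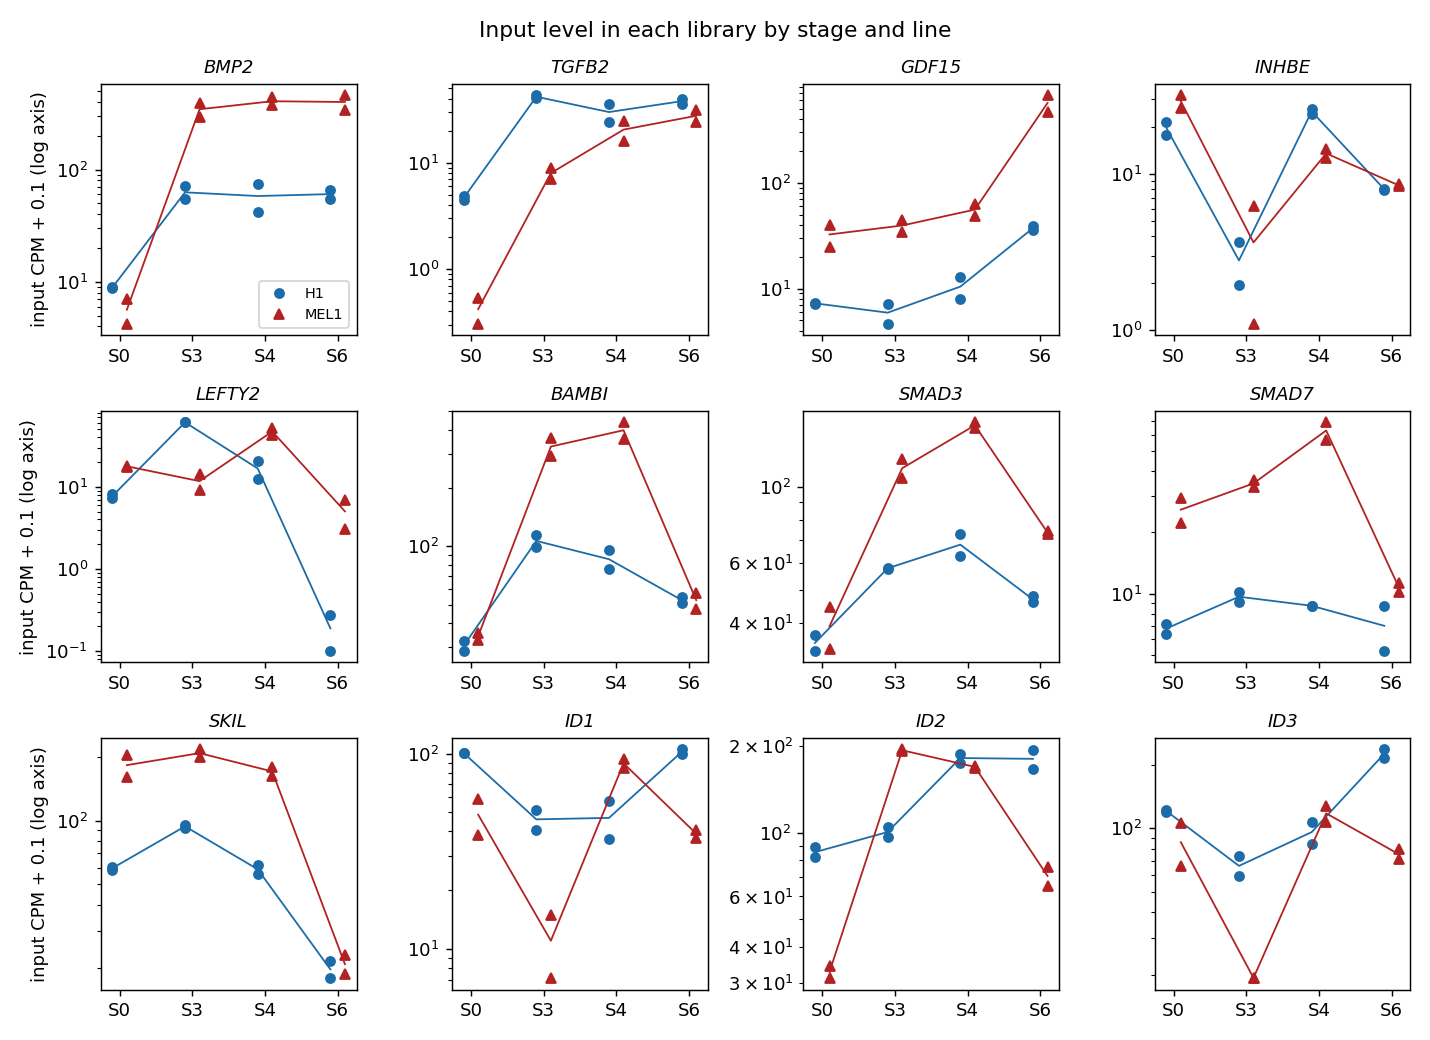
Input level (CPM + 0.1, log axis) of 12 members in each library by stage; circles are H1, triangles MEL1, and lines join the line means (n = 2 a line and stage). BMP2 lies higher in MEL1 from S3 on, SKIL drops in both lines at S6, and ID1 and ID3 dip furthest in MEL1 at S3.

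Among the traps and antagonists, CER1 and NOG had the fewest input counts, 343 and 187 over all libraries. CER1, a secreted antagonist of nodal and BMP made by anterior endoderm, had 1.69, 0.227, 3.08 and 3.92 CPM at S0, 8.08, 17.9, 4.25 and 2.71 at S3, 6.67, 3.70, 13.4 and 18.1 at S4 and 0.710, 0.882, 0 and 0.807 at S6. The S6 libraries lay below all S4 libraries, and CER1 fell (−3.84 ± 0.86 (SE), edgeR adjusted p = 0.0172). Its rise in S3 vs S0 (2 ± 0.75 (SE), edgeR adjusted p = 0.0458) was seen in H1 and not in MEL1, with changes of 3.74 in H1 and −0.01 in MEL1 (edgeR adjusted p for the line difference = 0.00323). It was lost without H1 S0 replicate 1, H1 S0 replicate 2 or H1 S3 replicate 2 (adjusted p up to 0.158) and with only the 8 libraries of the comparison (adjusted p = 0.143). MEL1 alone gave −0.06. NOG, the BMP antagonist noggin, had 0.242, 0.455, 0 and 0.218 CPM at S0, 0.985, 2.88, 0 and 0 at S3, 8.64, 8.09, 1.26 and 0.738 at S4 and 5.68, 5.73, 1.87 and 0.807 at S6. The S6 libraries all lay above S0, and NOG was higher in S6 vs S0 (3.83 ± 0.74 (SE), edgeR adjusted p = 0.000738). Its call in S3 vs S0 (1.73 ± 0.80 (SE), edgeR adjusted p = 0.0964) was lost without H1 S0 replicate 1, H1 S0 replicate 2, H1 S3 replicate 2 or MEL1 S0 replicate 1 (adjusted p up to 0.568), and MEL1, which had no NOG count at S3, gave −2.02 alone. The call in S4 vs S3 (2.33 ± 0.60 (SE), edgeR adjusted p = 0.0671) was lost without any 1 of the 8 libraries but H1 S3 replicate 2 (adjusted p up to 0.196).

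FSTL3, a follistatin-type protein that binds activin, stood at 9.90, 8.19, 4.52 and 3.26 CPM at S0, 8.67, 10.1, 16 and 21.0 at S3, 10.4, 11, 68.1 and 83.7 at S4 and 11.2, 14.3, 19.0 and 22.6 at S6. H1 was nearly level, while MEL1 was lowest at S0 and highest at S4. The call in S6 vs S0 (1.17 ± 0.55 (SE), edgeR adjusted p = 0.0976) came with changes of 0.49 in H1 and 2.40 in MEL1 (edgeR adjusted p for the line difference = 0.00201). It was lost without either H1 S6, either MEL1 S0 or either MEL1 S6 replicate (adjusted p up to 0.284) and with the mitochondrial genes left out (adjusted p = 0.1).

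Among the receptors, BAMBI and ACVR1B were called at S3. BAMBI encodes a pseudoreceptor without a kinase that damps TGF-beta and BMP signals and is induced by both. BAMBI stood at 32.4, 28.6, 35.6 and 32.9 CPM at S0, 99.1, 114, 294 and 361 at S3, 76.0, 95.2, 358 and 437 at S4 and 54.5, 50.7, 57.5 and 47.6 at S6. All S3 and S4 libraries lay above all S0 and S6 libraries, furthest in MEL1. BAMBI rose at S3 (2.51 ± 0.38 (SE), edgeR adjusted p = 0.000118) and fell from S4 to S6 (−1.84 ± 0.38 (SE), edgeR adjusted p = 0.0104). The rise was 1.80 in H1 and 3.26 in MEL1 (edgeR adjusted p for the line difference = 8.78e-05), and the fall was −0.71 in H1 and −2.92 in MEL1 (edgeR adjusted p for the line difference = 1.37e-06).

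ACVR1B, the activin and nodal type I receptor, had 34.3, 27.3, 19.5 and 31.1 CPM at S0, 45.7, 42.4, 90.3 and 98.4 at S3 and 65.9, 62.0, 129 and 115 at S6. The later libraries lay above S0, more so in MEL1. It rose in S3 vs S0 (1.16 ± 0.26 (SE), edgeR adjusted p = 0.00243) and in S6 vs S0 (1.60 ± 0.26 (SE), edgeR adjusted p = 0.000173). Without MEL1 S0 replicate 1 the S3 vs S0 change was 0.89, under 2-fold. ACVR1, a BMP type I receptor, had 14.3, 22.5, 48.7 and 43.5 CPM at S4 and 12.6, 8.16, 8.22 and 10.5 at S6. Each S6 library lay below all S4 libraries, and ACVR1 fell (−1.56 ± 0.29 (SE), edgeR adjusted p = 0.00615). BMPR1A, a BMP type I receptor, had 36.2, 34.8, 56.8 and 39.6 CPM at S0, 33.5, 39.6, 17.5 and 20.5 at S3 and 17.2, 22.5, 14.9 and 14.1 at S6. H1 held its S0 range at S3 where MEL1 did not, and both lines were low at S6. BMPR1A fell in S6 vs S0 (−1.37 ± 0.31 (SE), edgeR adjusted p = 0.0024).

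TGFBR2, the TGF-beta type II receptor, had 2.66, 2.73, 5.14 and 2.83 CPM at S0, 2.96, 3.02, 8.82 and 7.01 at S4 and 3.37, 4.41, 41.1 and 34.7 at S6. The MEL1 libraries at S6 stood apart from all others. TGFBR2 was called higher in S6 vs S0 (2.16 ± 0.49 (SE), edgeR adjusted p = 0.00236), with changes of 0.52 in H1 and 3.23 in MEL1 (edgeR adjusted p for the line difference = 0.0017). The call in S6 vs S4 (1.59 ± 0.47 (SE), edgeR adjusted p = 0.0602) was lost without H1 S4 replicate 1, either MEL1 S4 replicate or either MEL1 S6 replicate (adjusted p up to 0.178). ACVR2A, an activin type II receptor, had 6.76, 5.91, 10.5 and 7.18 CPM at S0 and 21.7, 27.8, 12.0 and 11.7 at S6. The 4 libraries at S6 lay above those at S0, by little in MEL1. Its call (1.06 ± 0.46 (SE), edgeR adjusted p = 0.0741) was lost without either H1 S0 replicate, H1 S6 replicate 2 or either MEL1 S6 replicate (adjusted p up to 0.206).

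Of the SMADs, SMAD3, which carries TGF-beta, activin and nodal signals, had 33.1, 36.8, 44.6 and 33.5 CPM at S0, 57.9, 57.5, 120.1 and 106 at S3, 72.6, 62.7, 154 and 148 at S4 and 47.8, 45.9, 72.5 and 74.2 at S6. All S3 libraries lay above S0, and MEL1 rose further than H1. SMAD3 was called higher at S3 (1.11 ± 0.19 (SE), edgeR adjusted p = 0.000365), and without MEL1 S0 replicate 2 the change was 0.93, under 2-fold. SMAD7, an inhibitory SMAD induced by TGF-beta and BMP signals, had 6.28, 7.05, 29.2 and 22.2 CPM at S0, 8.64, 8.64, 56.7 and 69.0 at S4 and 5.15, 8.60, 11.2 and 10.1 at S6. MEL1 was high at S4 and near H1 at S6. SMAD7 fell from S4 to S6 (−1.46 ± 0.35 (SE), edgeR adjusted p = 0.0244), with changes of −0.35 in H1 and −2.56 in MEL1 (edgeR adjusted p for the line difference = 0.000676), and the call was lost without either MEL1 S6 replicate (adjusted p up to 0.111). SMAD9, a BMP SMAD, had 0.242, 0, 1.03 and 0.435 CPM at S0 and 4.08, 2.87, 2.99 and 4.44 at S6. It was close to the limit of counting at S0, above that in every S6 library, and called higher (2.99 ± 0.85 (SE), edgeR adjusted p = 0.00989). SMAD5, the other BMP SMAD in the table, was not called, with 84.8, 74.1, 91.5 and 97.9 CPM at S0, 70.6, 73.5, 81.1 and 79.4 at S3, 71.1, 59.9, 67.6 and 67.1 at S4 and 56.8, 63.9, 87.4 and 87.9 at S6. Its libraries overlapped between neighbouring stages.

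SKIL, a SMAD co-repressor that TGF-beta signals induce, fell late. It stood at 60.6, 58.4, 205 and 161 CPM at S0, 92.8, 95.2, 218 and 200.4 at S3, 62.0, 55.7, 179 and 163 at S4 and 21.5, 17.9, 18.7 and 23.0 at S6. MEL1 lay above H1 through S4, and at S6 the lines overlapped below every earlier library. SKIL fell from S4 to S6 (−2.23 ± 0.27 (SE), edgeR adjusted p = 0.000226) and lay below S0 at S6 (−2.30 ± 0.27 (SE), edgeR adjusted p = 8.21e-06), and the S6 vs S4 change was −1.57 in H1 and −3.04 in MEL1 (edgeR adjusted p for the line difference = 0.000308). HIPK2, a homeodomain-interacting kinase that binds SMADs and SKI, had 17.9, 15.5, 28.6 and 31.8 CPM at S0, 53.2, 55.8, 118 and 101 at S3 and 49.9, 51.2, 79.5 and 89.1 at S6. Every later library lay above S0 within its line. HIPK2 rose in S3 vs S0 (1.79 ± 0.15 (SE), edgeR adjusted p = 3.62e-07) and in S6 vs S0 (1.54 ± 0.15 (SE), edgeR adjusted p = 1.42e-06), with the smallest standard error among the called members, and no line difference was called (H1 1.71, MEL1 1.86 at S3). HIPK3 had 0, 0.227, 0 and 1.09 CPM at S0 and 2.84, 1.54, 1.12 and 0.807 at S6. It held few reads in any library, and its call (2.11 ± 0.96 (SE), edgeR adjusted p = 0.0903) was lost without any 1 of the 8 libraries but MEL1 S0 replicate 2 (adjusted p up to 0.224). HIPK1 was not called, with 49.6, 51.4, 68.9 and 52.7 CPM at S4 and 70.8, 75.4, 64.6 and 74.6 at S6. SKI, SMURF1, SMURF2, TGFBRAP1, ZFYVE9 and ZFYVE16 were not called in any comparison over both lines.

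The ID genes encode helix-loop-helix inhibitors and are direct BMP targets. ID1 had 101, 100.5, 38.5 and 58.8 CPM at S0, 51.4, 40.6, 7.01 and 14.9 at S3, 57.0, 36.6, 94.1 and 84.1 at S4 and 98.9, 105, 37.0 and 40.7 at S6. MEL1 was lowest at S3 and its highest at S4, while H1 at S3 and S4 lay below S0 and came back at S6. ID1 fell at S3 (−1.5 ± 0.45 (SE), edgeR adjusted p = 0.0153). From S3 to S4 the change over both lines was not called, and it was 0.01 in H1 and 3.01 in MEL1 (edgeR adjusted p for the line difference = 1.63e-05). ID3 had 119.6, 122, 66.0 and 105 CPM at S0, 73.3, 58.9, 19.3 and 19.4 at S3, 107, 84.2, 128 and 107 at S4 and 237, 215, 79.2 and 71.0 at S6. The S3 values lay below S0 in each line, furthest in MEL1. ID3 fell at S3 (−1.44 ± 0.35 (SE), edgeR adjusted p = 0.004) and rose at S4 (1.59 ± 0.35 (SE), edgeR adjusted p = 0.0386). The S4 vs S3 change was 0.53 in H1 and 2.60 in MEL1 (edgeR adjusted p for the line difference = 5.3e-05), and its call was lost without MEL1 S3 replicate 1, MEL1 S3 replicate 2 or MEL1 S4 replicate 2 (adjusted p up to 0.159).

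ID2 went the other way from ID1 and ID3 at S3, with 88.7, 82.1, 34.3 and 31.1 CPM at S0, 104, 96.4, 194 and 192 at S3, 175, 188, 171 and 167 at S4 and 167, 194, 75.8 and 65.3 at S6. MEL1 had its lowest values at S0 and its highest at S3, and H1 was nearly level between those stages. ID2 rose at S3 (1.49 ± 0.38 (SE), edgeR adjusted p = 0.00595), with changes of 0.23 in H1 and 2.56 in MEL1 (edgeR adjusted p for the line difference = 2.35e-08). The call in S6 vs S0 (1.09 ± 0.37 (SE), edgeR adjusted p = 0.0246) passed 2-fold narrowly, and without either H1 S6 replicate or either MEL1 S0 replicate the change was between 0.87 and 0.99. ID4 had 17.9, 15.7, 25.3 and 17.8 CPM at S0, 31.5, 38.1, 1.25 and 1.58 at S3, 49.9, 42.9, 11.8 and 15.1 at S4 and 101, 92.6, 12.7 and 9.68 at S6. The lines lay together at S0 and far apart at S3 and S6, with H1 high. No ID4 change over both lines was called, and the S3 vs S0 change was 1.05 in H1 and −3.90 in MEL1 (edgeR adjusted p for the line difference = 1.34e-08). MIXL1, a nodal target of mesendoderm, had 29 input counts in all and was not called. The values of ID3 and ID4 in each library go beyond the limit of 30 set on members described in full, and were added after they were seen.

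To show the DNA near the start of such genes, the 250 bases upstream are printed for 5 members: BAMBI, SKIL and CER1, which were called in both directions or with a steep fall, and ID1 and ID3, which moved together at S3. The 5 were chosen by hand. Others called in both directions, such as LEFTY2 and INHBE, are not printed. The sequences are RefSeq windows of GRCh38.p14, written 5′ to 3′ on the strand of the gene. Capitals mark matches on either strand to 3 motifs bound by proteins of the pathway: GGCGCC, a GC-rich BMP-SMAD motif, CAGAC, a SMAD-binding element, and AATNNACA, a FOXH1-type motif. Among 35116 windows of this length, 16.38% held GGCGCC, 38.0% held CAGAC and 9.88% held AATNNACA. Of the 55 members, 44 had a window, and of their 73 windows 13 (17.8%), 29 (39.7%) and 4 (5.48%) held the respective motif, near or below the shares of all windows. A match is a description of letters and no evidence of binding.
BAMBI (chr10:28677271-28677520, plus strand; 3 GGCGCC and 2 CAGAC matches): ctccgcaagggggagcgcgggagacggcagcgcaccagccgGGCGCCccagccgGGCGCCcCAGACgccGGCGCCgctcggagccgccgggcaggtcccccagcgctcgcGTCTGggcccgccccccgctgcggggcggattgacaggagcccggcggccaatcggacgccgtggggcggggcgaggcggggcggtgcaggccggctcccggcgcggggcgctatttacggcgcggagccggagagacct
SKIL (chr3:170357465-170357714, plus strand; 1 GGCGCC and 1 CAGAC match): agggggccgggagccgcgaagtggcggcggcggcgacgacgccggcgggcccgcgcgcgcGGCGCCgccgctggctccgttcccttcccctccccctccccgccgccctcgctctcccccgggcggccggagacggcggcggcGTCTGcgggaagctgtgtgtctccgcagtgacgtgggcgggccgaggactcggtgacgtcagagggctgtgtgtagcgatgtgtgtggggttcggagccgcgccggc
CER1 (chr9:14722734-14722983, minus strand; 1 CAGAC and 2 AATNNACA matches): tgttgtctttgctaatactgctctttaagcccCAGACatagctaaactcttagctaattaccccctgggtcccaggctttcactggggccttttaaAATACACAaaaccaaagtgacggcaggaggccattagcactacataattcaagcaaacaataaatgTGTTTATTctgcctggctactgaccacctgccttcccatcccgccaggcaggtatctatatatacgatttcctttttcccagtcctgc
ID1 (chr20:31605039-31605288, plus strand; no match): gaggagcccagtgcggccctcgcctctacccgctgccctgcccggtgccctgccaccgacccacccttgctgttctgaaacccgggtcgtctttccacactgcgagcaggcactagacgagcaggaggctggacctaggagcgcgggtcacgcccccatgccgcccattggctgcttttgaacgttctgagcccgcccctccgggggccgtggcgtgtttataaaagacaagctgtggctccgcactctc
ID3 (chr1:23559502-23559751, minus strand; 1 CAGAC match): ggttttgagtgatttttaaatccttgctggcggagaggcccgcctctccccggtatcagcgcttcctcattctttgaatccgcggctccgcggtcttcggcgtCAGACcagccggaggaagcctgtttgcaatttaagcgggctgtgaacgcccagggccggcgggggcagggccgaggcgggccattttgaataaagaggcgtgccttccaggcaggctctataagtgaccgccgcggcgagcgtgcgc

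Among the 7 members that only share a name stem, 3 were called in input. SKIDA1, which holds a SKI/DACH domain, had 22.7, 16.1, 1.03 and 3.70 CPM at S0, 42.0, 42.2, 6.76 and 4.29 at S3 and 61.6, 54.2, 30.6 and 32.3 at S6. H1 lay above MEL1 throughout. It rose in S6 vs S0 (2.61 ± 0.44 (SE), edgeR adjusted p = 0.000256), and its call in S3 vs S0 (1.12 ± 0.43 (SE), edgeR adjusted p = 0.0472) was lost without either H1 S3 replicate or MEL1 S0 replicate 1 (adjusted p up to 0.116). ZFYVE19 rose in S6 vs S0 (1.39, edgeR adjusted p = 0.00198). ZFYVE27 did so too (1.07, edgeR adjusted p = 0.00148), and its change was 0.89 without MEL1 S0 replicate 1 and 0.96 without MEL1 S6 replicate 2. Without the 7, the counts over 48 pathway members were 17 in S3 vs S0, 3 in S4 vs S3, 11 in S6 vs S4 and 21 in S6 vs S0. The 23 members not called in any comparison ranged from 0 to 229.6 CPM per library, with RGMB, a BMP co-receptor, at the top.

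Stage changes differed between H1 and MEL1 in a larger share of the members than of all genes in each comparison, though no test was made of that. The line difference had an edgeR adjusted p under 0.1 for 29 of 55 members in S3 vs S0 (52.7%, against 45.9% of all genes) and 14 in S4 vs S3 (25.5%, against 14.1%). It did so for 18 in S6 vs S4 (32.7%, against 23.1%) and 26 in S6 vs S0 (47.3%, against 36.3%). In all, 41 members differed in at least 1 comparison, and so did 32 of the 56 called pairs of member and comparison. No matching share over all genes is given for these counts, so they show nothing particular to the members. Some members without a call had opposite changes by line. RGMB ranged over 24.5 to 229.6 CPM, and its S3 vs S0 change was 1.64 in H1 and −1.01 in MEL1 (edgeR adjusted p for the line difference = 2.14e-06). TGFBR1, the TGF-beta type I receptor, ranged over 4.50 to 35.8 CPM with S3 vs S0 changes of 1.14 in H1 and −1.57 in MEL1 (edgeR adjusted p for the line difference = 2.44e-05). BMP7, a BMP ligand, ranged over 4.50 to 68.4 CPM with changes of 0.53 in H1 and −2.39 in MEL1 (edgeR adjusted p for the line difference = 6.1e-06). In these 3 genes H1 was higher at S3 than at S0 and MEL1 lower, by the fitted means.

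**Figure D3:**
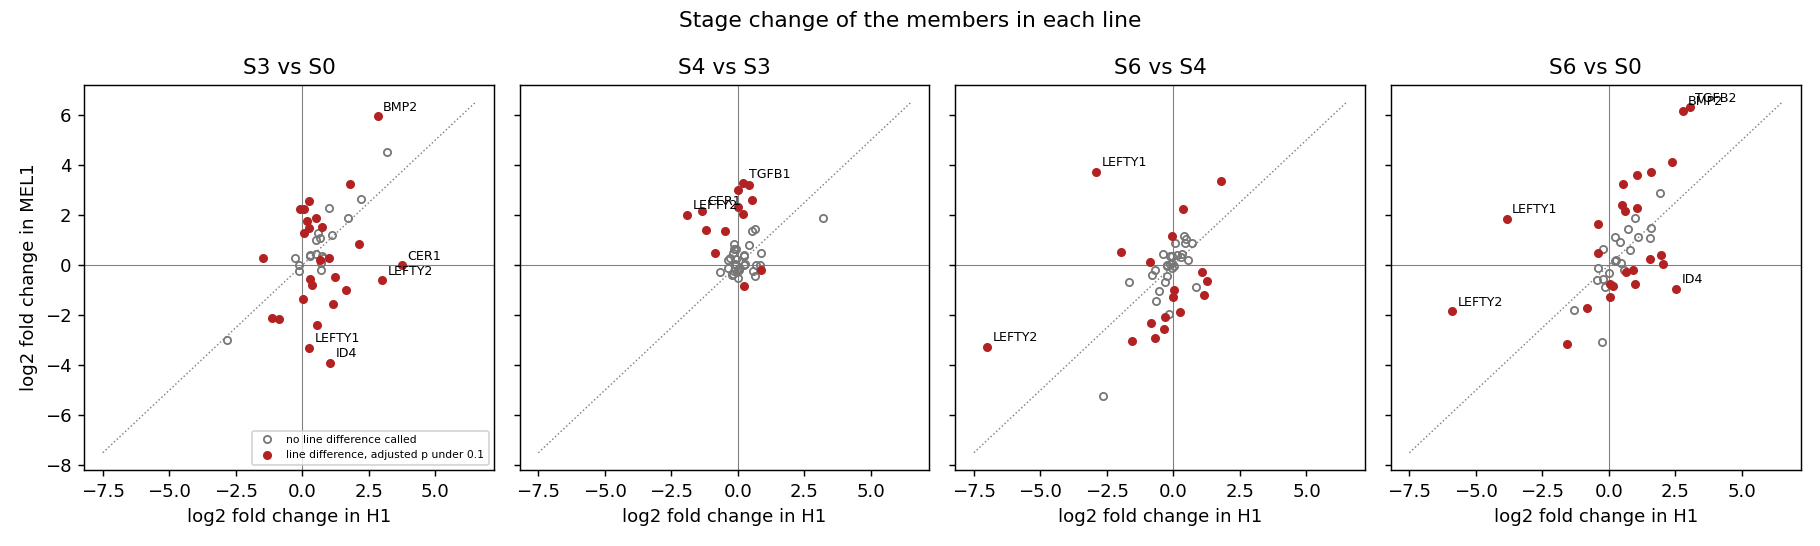
Stage change (log2 fold change in input) in H1 (horizontal) against MEL1 (vertical) for the 46 members with at least 200 input counts, in 4 comparisons; filled points have an adjusted p under 0.1 for the line difference, the dotted line marks equal change, and names are given where the lines differ by at least 3 on the log2 scale. BMP2 lies above the dotted line in S3 vs S0, and ID4 and LEFTY1 far below it.

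Other genes of the pathway outside the symbol pattern were taken from a list of 90, of which 48 were in the table. In S3 vs S0, 15 of the 48 were called (10 higher, 5 lower; 31.2%, against 28.8% of all genes), and in S4 vs S3 2 were, both higher (4.17%, against 1.84%). From S4 to S6 2 were called, both lower (4.17%, against 5.18%), and in S6 vs S0 16 (10 higher, 6 lower; 33.3%, against 31.4%). In all, 22 of the 48 were called at least once, against 42.2% of all genes. NODAL, the ligand that LEFTY and CER1 oppose, had 4.35, 6.59, 102 and 100.3 CPM at S0, 4.73, 8.03, 37.3 and 20.3 at S3, 1.23, 0.686, 30.3 and 28.4 at S4 and 0.178, 0.441, 0.373 and 0 at S6. MEL1 was far above H1 until S4, and both lines were near 0 at S6. NODAL fell from S4 to S6 (−4.78 ± 0.85 (SE), edgeR adjusted p = 0.00433) and lay below S0 (−6.70 ± 0.81 (SE), edgeR adjusted p = 1.17e-05). MSX2, a BMP-responsive homeobox gene, had 2.66, 3.64, 2.47 and 3.92 CPM at S0, 13.8, 11.7, 28.5 and 34.3 at S3 and 34.3, 37.5, 11.2 and 13.7 at S6, and rose at S3 (2.84 ± 0.47 (SE), edgeR adjusted p = 0.00024). FBN2, a fibrillin that binds latent ligands, had 10.4, 8.41, 13 and 12.0 CPM at S0 and 59.1, 62.4, 42.0 and 32 at S3. All its S3 libraries lay above S0, and it rose (2.10 ± 0.23 (SE), edgeR adjusted p = 4.99e-06). USP9X, a deubiquitinase that acts on SMAD4, had 359.9, 355, 354 and 287 CPM at S0 and 80.8, 76.4, 70.3 and 67.5 at S3. It fell in both lines alike (−2.20 ± 0.14 (SE), edgeR adjusted p = 1.28e-08). The matrix gene CCN2 had 164, 126, 300.4 and 286 CPM at S4 and 26.1, 30.4, 87.0 and 72.2 at S6, and fell (−2.05 ± 0.67 (SE), edgeR adjusted p = 0.0858). HTRA1 and CRIM1 were those called higher in S4 vs S3. HTRA1, a secreted protease, had 4.73, 6.80, 0 and 0 CPM at S3 and 3.95, 49.1, 3.78 and 4.79 at S4 (2.57 ± 0.71 (SE), edgeR adjusted p = 0.0974), where H1 replicate 2 stood alone at S4 and H1 replicate 1 lay below both H1 libraries at S3. CRIM1, which binds BMPs, went from 19.1, 18.3, 9.51 and 10.2 CPM to 39.5, 35.3, 33.2 and 36.1 (1.31 ± 0.32 (SE), edgeR adjusted p = 0.0552).

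The m6A signal of a gene or peak is given as the log2 ratio of IP CPM to input CPM in each preparation, with a prior count of 1. It is a description, since the peaks were called from these libraries. The member median lay above the median of all genes in each of the 16 preparations, for example 1.72 against 1.24 in H1 S0 replicate 1 and 0.76 against 0.01 in MEL1 S4 replicate 1. Of the 55 members, 26 (47.27%) were above 0 in every preparation, against 32.31% of all genes. Those with the most input reads among the 26 were BMP2 (median 2.40, 1.65 to 3.25), ID2 (median 2.05, 0.90 to 2.97) and SKI (median 1.52, 0.49 to 2). Below 0 in every preparation were 3 members, ID1, ID3 and SKIC2, against 16% of all genes. ID1 had −1.74, −1.82, −1.43 and −2.55 at S0, −2.41, −2.52, −0.28 and −2.25 at S3, −3.06, −2.54, −3.87 and −2.45 at S4 and −1.71, −1.91, −2.41 and −2.08 at S6. ID3 had −2.16, −1.84, −1.93 and −2.66 at S0, −2.29, −2.37, −0.58 and −0.58 at S3, −0.98, −0.85, −3.09 and −2.40 at S4 and −1.78, −1.51, −1.85 and −1.07 at S6. Neither gene came above 0 in any preparation. ID2 lay on the other side, with 2.17, 2.24, 2.48 and 2.97 at S0 and 1.16, 0.90, 2.21 and 2.01 at S6, and ID4 was above 0 in 2 of 16 preparations. The ID genes thus parted by gene, with ID2 above 0 in all 16.

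**Figure D4:**
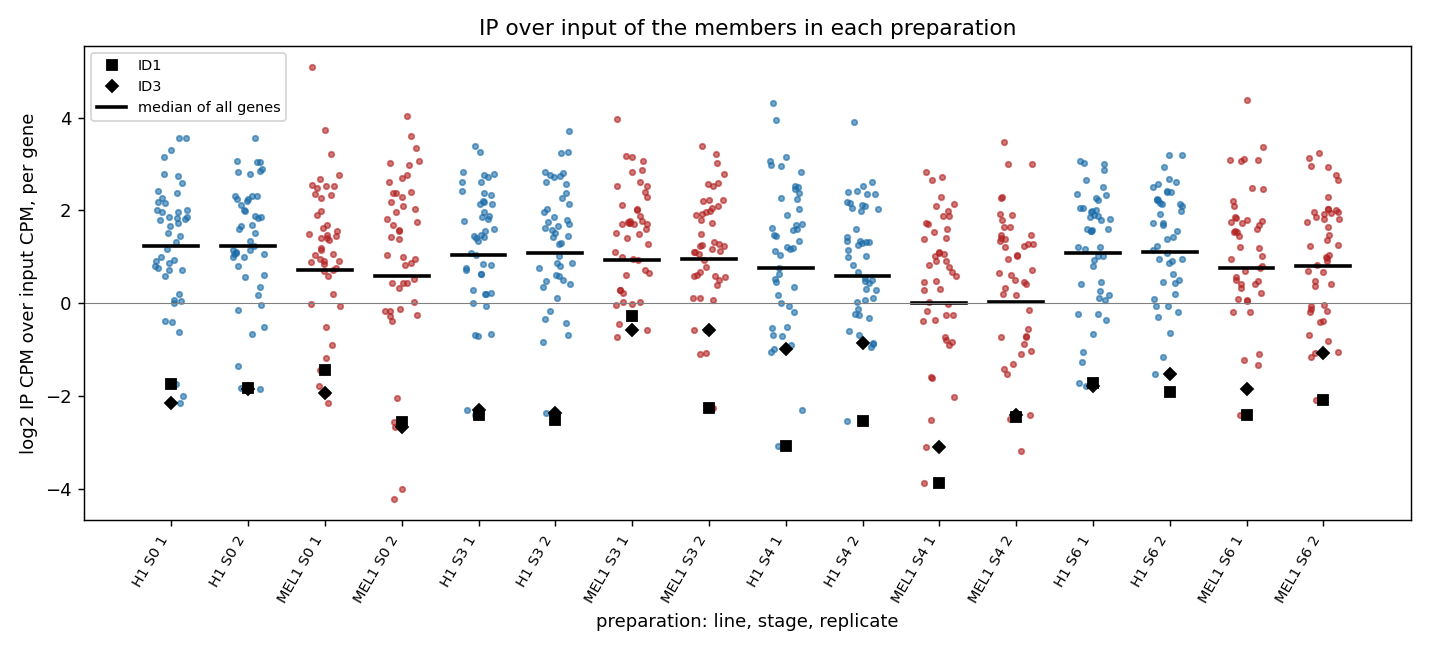
Log2 ratio of IP to input CPM per gene (vertical axis) in each of 16 preparations for the 46 members with at least 200 input counts; points are members (blue H1, red MEL1), squares ID1, diamonds ID3 and bars the median of all genes. ID1 and ID3 lie below 0 in each preparation, and the all-gene median is near 0 in both MEL1 preparations at S4.

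Whether m6A differed between stages was asked of each merged peak, by testing if IP and input changed unequally from stage to stage. In S3 vs S0, 0 of 168 member peaks were called by edgeR at adjusted p under 0.1 and 2-fold, against 0.0498% of all peaks (0.0306% higher, 0.0192% lower), with 5 at an unadjusted p under 0.05 (2.98%, against 6.19% of all peaks) and 0 called by DESeq2 (0.640% of all peaks). In S6 vs S0 edgeR called 0 of 168, against 1.26% of all peaks (0.0766% higher, 1.18% lower), with 9 at an unadjusted p under 0.05 (5.36%, against 12.8% of all peaks) and 5 called by DESeq2 (1 higher, 4 lower; 2.98%, against 6.03% of all peaks). In S4 vs S3, 4 were called, all lower (6.60% of all peaks, 5.85% lower). In S6 vs S4, 7 were called, 6 higher and 1 lower (7.58% of all peaks, 5.31% higher and 2.26% lower). The member shares were thus at or below those of all peaks in each comparison.

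The scaling moved the zero point of these tests. The median change of all peaks in S4 vs S3 was −0.36 with TMM over all libraries, −0.01 with TMM within IP and within input, and 0.12 with RLE size factors. In S6 vs S4 it was 0.19, −0.04 and −0.15 in the same order, and in S6 vs S0 −0.35, −0.22 and −0.24. Of all peaks, 196 were called higher and 1528 lower in S4 vs S3 with TMM, but 274 and 333 with RLE. In S6 vs S4 the split was 1387 higher and 591 lower with TMM and 730 and 942 with RLE, and in S6 vs S0 20 and 308 against 16 and 73. For the member peaks the RLE split was 1 higher and 2 lower in S4 vs S3, and 4 higher and 1 lower in S6 vs S4. The 2 shallow MEL1 IP libraries at S4 stood among the preparations of both comparisons: without both, an alternative chosen after seeing the data, 29 member peaks were called in S4 vs S3 (3 higher, 26 lower; 17.3%, against 20.9% of all peaks) and 24 in S6 vs S4 (23 higher, 1 lower; 14.3%, against 19.2%). All 11 called changes were kept. Leaving out 1 preparation gave 2 to 13 calls in S4 vs S3, the most without MEL1 S4 replicate 1 (13, or 7.74%, against 10.1% of all peaks) and MEL1 S4 replicate 2 (9, or 5.36%, against 8.35%), and 2 (1.19%) without H1 S3 replicate 1, H1 S3 replicate 2, H1 S4 replicate 1 or MEL1 S3 replicate 2 (3.32%, 3.00%, 0.927% and 2.74% of all peaks). In S6 vs S4 it gave 3 to 12, with 12 (7.14%, against 10.3%) without MEL1 S4 replicate 1, 3 (1.79%, against 3.31%) without H1 S6 replicate 1, and 4 without H1 S4 replicate 1, H1 S4 replicate 2, H1 S6 replicate 2, MEL1 S6 replicate 1 or MEL1 S6 replicate 2 (2.38%, against 5.0%, 5.60%, 3.57%, 3.81% and 3.96%). The calls over all peaks ran from 242 to 2643 and from 865 to 2701. With counts summed per gene instead of per peak, 0 members were called by edgeR in either comparison.

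SMAD5 held 5 of the 11 called changes. It has 7 merged peaks, named here by the position label in the table, whose origin is not given in the sources used here. At position 4951 the IP counts were 897, 1036, 882 and 1012 at S0, 492, 627, 631 and 794 at S3, 13, 48, 30 and 23 at S4 and 216, 276, 524 and 200 at S6. The log2 ratios of IP to input were 0.43, 0.88, 0.62 and 1.17 at S3, −4.04, −2.82, −1.29 and −1.92 at S4 and −0.38, −0.28, −0.13 and −0.40 at S6. Every S4 preparation lay below all others, further in H1. The ratio fell in S4 vs S3 (−3.21 ± 0.50 (SE), edgeR adjusted p = 0.00065) and rose in S6 vs S4 (2.14 ± 0.49 (SE), edgeR adjusted p = 0.0141), against all-peak medians of −0.36 and 0.19. At position 3351 the IP counts were 78, 103, 85 and 62 at S0, 29, 37, 33 and 46 at S3, 0, 0, 1 and 0 at S4 and 28, 34, 27 and 25 at S6, beside input counts of 13, 27, 6 and 8 at S4. The IP at S4 was thus all but without reads while the input was not. The fitted change was −4.84 ± 0.92 (SE), edgeR adjusted p = 0.0044 in S4 vs S3 and 4.90 ± 0.92 (SE), edgeR adjusted p = 0.00394 in S6 vs S4, with a size that depends on the prior count. Both peaks kept their calls when any 1 preparation was left out and with RLE. With the IP libraries thinned to one depth, the S4 vs S3 call at 3351 was lost (adjusted p = 0.17). In MEL1 alone 4951 kept its call in S4 vs S3 and lost that in S6 vs S4 (adjusted p = 0.108), and 3351 lost both. The peak at 1601 was called higher in S6 vs S4 (4.01 ± 1.35 (SE), edgeR adjusted p = 0.0857), on IP counts of 0, 3, 7 and 2 at S4 and 16, 16, 30 and 23 at S6. That call was lost without any 1 of 7 preparations, those of S4 and S6 but MEL1 S4 replicate 1 (adjusted p up to 0.221), and with RLE (adjusted p = 0.145).

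**Figure D5:**
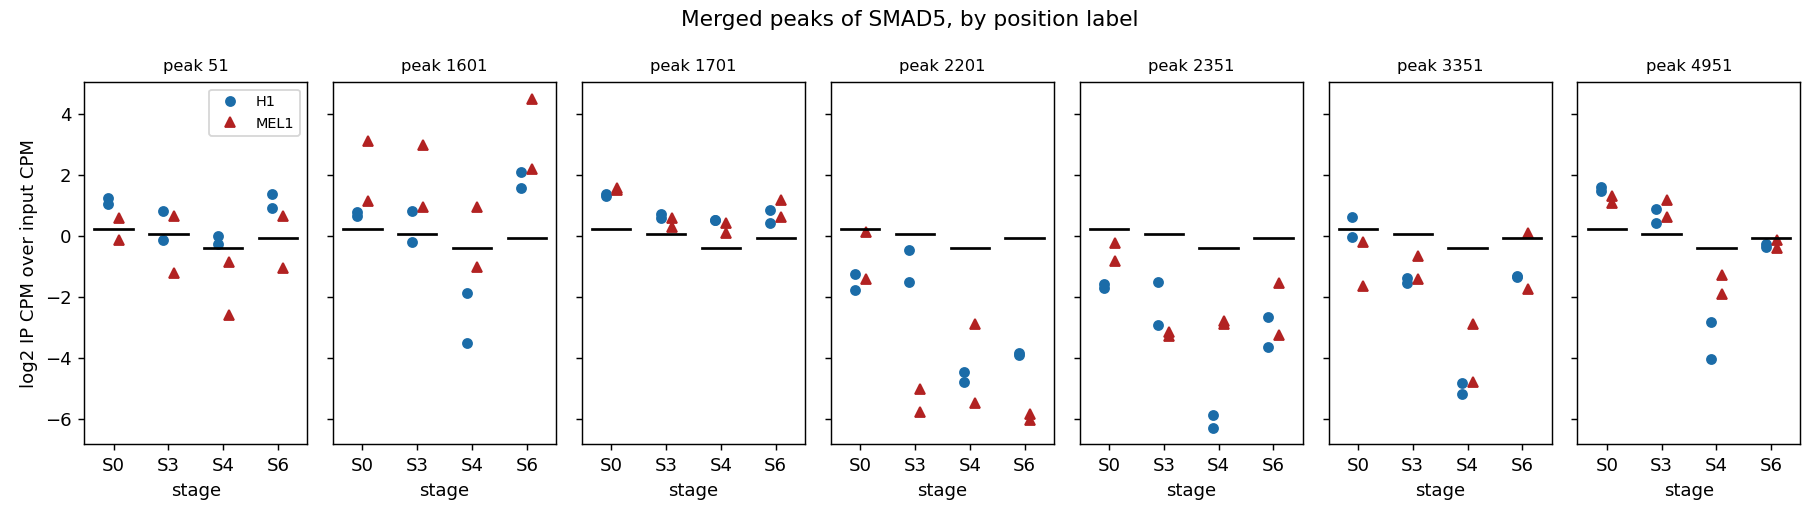
Log2 ratio of IP to input CPM (vertical axis, prior count 1) at the 7 merged peaks of SMAD5 by stage; circles are H1 and triangles MEL1 preparations, and bars are the median over 4 preparations of the all-peak median. At positions 3351 and 4951 each S4 preparation lies below every preparation of the other stages.

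At the GDF11 peak 851 the log2 ratios were 1.49, 1.67, 1.41 and 1.97 at S3, 0.48, −0.08, 0.67 and 0.69 at S4 and 1.70, 1.91, 2.10 and 2.53 at S6. The S4 preparations lay below all others. The ratio fell in S4 vs S3 (−1.22 ± 0.39 (SE), edgeR adjusted p = 0.0775) and rose in S6 vs S4 (1.61 ± 0.39 (SE), edgeR adjusted p = 0.0212). The rise was kept in all 19 alternatives, and the fall was not. The call in S4 vs S3 was lost without either H1 S3 replicate, either H1 S4 replicate or MEL1 S3 replicate 2 (adjusted p up to 0.51) and with RLE (adjusted p = 0.367). At the ID2 peak 1301 the ratios were 0.17, 0.25, −1.56 and −0.49 at S3 and −6.26, −3.93, −1.98 and −2.55 at S4. The H1 preparations at S4 stood lowest, and the IP counts at S4 were 6, 36, 46 and 32. The fall (−2.46 ± 0.82 (SE), edgeR adjusted p = 0.0901) was lost without the same 5 preparations (adjusted p up to 0.469) and with RLE (adjusted p = 0.252).

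At the HIPK1 peak 951 the ratios were −4.54, −2.93, −3.25 and −0.07 at S4 and −0.57, −0.34, 0.38 and 0.66 at S6. One S4 preparation, MEL1 replicate 2, lay within the S6 range. The rise (2.05 ± 0.68 (SE), edgeR adjusted p = 0.0836) was lost without any 1 preparation of S4 or S6 but MEL1 S4 replicate 2 (adjusted p up to 0.34) and with RLE (adjusted p = 0.2). At the peak of ZFYVE26 labelled 9907, a gene outside the pathway, IP counts were 10, 8, 0 and 0 at S4 and 56, 76, 29 and 19 at S6. The rise (4.32 ± 1.27 (SE), edgeR adjusted p = 0.0504) was lost without H1 S4 replicate 2, H1 S6 replicate 1 or either MEL1 S6 replicate (adjusted p up to 0.125). The ID4 peak at position 1 was the member peak called lower in S6 vs S4, with ratios of 1.73, 0.52, 0.52 and 0.98 at S4 and −1.51, −0.91, −0.84 and −0.71 at S6. All S4 preparations lay above all S6 preparations. The fall (−2.12 ± 0.62 (SE), edgeR adjusted p = 0.0497) was lost without H1 S4 replicate 1 or either H1 S6 replicate (adjusted p up to 0.161).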

How the data were processed

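The deposited values were counts of reads in merged m6A peaks for 32 libraries, which the authors made by mapping and counting reads in 50-bp bins of each gene (Ensembl annotation 94) and by calling and merging peaks with MeRIPtools. Libraries were prepared with TruSeq Stranded mRNA and the EpiMark m6A kit. The authors tested their counts with DESeq2, and the aligner, build and peak-calling settings are not given in the sources used here. The table was expected to hold counts per gene and holds them per merged peak, so that the input level of a gene is the sum over its merged peaks (median 2 a gene, 3 a member) and reads outside peaks are not in it. Of the 7978 gene IDs, 7938 matched a symbol.

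Genes with at least 10 input counts in all were fitted with edgeR 4.0.16 in R 4.3.3 (TMM scaling, quasi-likelihood F-test, terms for stage and line, 16 input libraries), and line differences with the interaction of stage and line. Peaks were fitted over all 32 libraries with a term for stage by IP or input. A call needed a Benjamini-Hochberg adjusted p under 0.1 over all genes or peaks and a 2-fold change. DESeq2 1.42.0 was the other test, and further alternatives changed scaling, filter, covariate, pairing, depth and libraries. Fits were checked on simulated data with fixed seeds, for the recovery of known changes. The simulated counts had a single spread for all features and, for the stage fits, no line differences. The check thus does not cover the spread and line differences of these data. IP over input used CPM with a prior count of 1, and IP and input libraries of the same number were taken as one preparation. Where a stage held no count, a floor of 3 counts, the 95% upper limit of a count of 0, and the exact (Clopper-Pearson) limit of the ratio were used. Python 3.11.15, pandas 2.3.3, numpy 2.4.6, scipy 1.17.1 and matplotlib 3.10.9 made the tables and plots.

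Any member might be named, and values in each library were given for members called in an expression comparison or with a called m6A change, at most 30 and ordered by role. By that order 32 pathway members qualified, and ID3 and ID4 lay past the limit. Members and lists were chosen with earlier results of these data known. Mitochondrially encoded genes stayed in the library sizes. Their share of the input counts moved with stage and line, from 27.0%, 26.42%, 41.0% and 32.51% at S0 (H1 replicates, then MEL1) to 26.76%, 27.48%, 15.33% and 12.93% at S3, 17.65%, 15.44%, 16.48% and 15.75% at S4, and 11.57%, 11.8%, 16.4% and 15.82% at S6. Leaving these genes out of the library sizes tests the scaling only. What else goes with that share was not tested. Of the endoderm and of the intestinal markers 1 gene each is not reported here, and the lists and sums leave it out.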

Additional observations from a re-analysis of the deposited data

Results flagged for a closer look

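In 126 groups of 4 libraries, the gap of the highest or lowest library to its nearest neighbour was compared with the range of the group. The rule picks about 1 group in 20 where all 4 values come from a single normal population. The groups here join H1 and MEL1 libraries, and some hold few counts, so that this rate need not apply. The rule picked 5. The gap took 0.921 of the range for BMP1 at S6, 0.869 for GDF11 at S4, 1 for TGFB3 at S6 (3 counts in all), 0.931 for TGFBR2 at S0 and 0.838 for HIPK1 at S4. The cause was not tested.

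In 32 of the called changes the stage change differed between H1 and MEL1 (edgeR interaction, adjusted p under 0.1). No matching share over all called genes is given. The differences, H1 minus MEL1 on the log2 scale, are given by role. For the ligands they were 1.75 for BMP1 in S6 vs S4, −3.13 in S3 vs S0 and −3.40 in S6 vs S0 for BMP2, 1.29 in S3 vs S0 and −1.59 in S6 vs S0 for BMP4, and −1.55 in S6 vs S4 and −1.76 in S6 vs S0 for GDF15. LEFTY2 differed by 3.59 in S3 vs S0, −3.74 in S6 vs S4 and −4.05 in S6 vs S0, TGFB1 by −2.55 and TGFB2 by −3.27 in S6 vs S0. For the antagonists they were 3.76 for CER1 in S3 vs S0 and −1.91 for FSTL3 in S6 vs S0.

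For the receptors the differences were 1.47 for ACVR1 in S6 vs S4, −1.38 in S3 vs S0 and −1.22 in S6 vs S0 for ACVR1B, 1.54 for ACVR2A in S6 vs S0, and −1.45 in S3 vs S0 and 2.21 in S6 vs S4 for BAMBI. BMPR1A differed by 0.88 in S6 vs S0, and TGFBR2 by −1.89 in S6 vs S4 and −2.72 in S6 vs S0. For SMADs and regulators they were −0.81 for SMAD3 in S3 vs S0, 2.21 for SMAD7 in S6 vs S4, and 1.47 in S6 vs S4 and 1.55 in S6 vs S0 for SKIL. For the targets they were 1 for ID1, −2.32 for ID2 and 1.28 for ID3 in S3 vs S0, and −2.07 for ID3 in S4 vs S3. SKIDA1, outside the pathway, differed by −2.16 in S6 vs S0.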

How the results depend on the processing

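Of the 56 called expression changes, 55 kept direction and call in DESeq2, 56 with RLE size factors, 55 without mitochondrial genes, 56 without the filter, 52 with only the 8 libraries compared and 43 without a cell line term. H1 alone kept 38 and MEL1 alone 45, while 3 turned in MEL1 alone in S3 vs S0: CER1 (−0.06), LEFTY2 (−0.65) and NOG (−2.02). None of the 3 was called there, with edgeR adjusted p from 0.131 to 0.942. Leaving out 1 library ended 20 of the 56 at least once and turned none. Of the 11 m6A changes, 7 were kept with RLE, 7 with TMM within library types, 8 in DESeq2, 5 without a cell line term, 6 with thinned IP libraries, 11 with the preparation block, 11 in H1 alone and 2 in MEL1 alone, and 9 of the 9 that passed an input total of 100.

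In S4 vs S3 the count of 3 members became 6 in DESeq2, 1 without a cell line term, 14 in MEL1 alone and 1 to 5 on leaving out 1 library, where the share of all genes called, 1.84% at first, became 3.73% in DESeq2, 0.351% without a cell line term, 9.50% in MEL1 alone and 0.916% to 2.43% on leaving out 1. In S6 vs S4 the 11 became 5 without a cell line term, 19 in MEL1 alone and 6 to 11 on leaving out 1, while 5.18% of all genes became 1.87% without a cell line term, 15.5% in MEL1 alone and 3.32% to 6.91% on leaving out 1. Leaving out 1 library gave 14 to 22 in S3 vs S0 (25.2% to 32.1% of all genes) and 20 to 23 in S6 vs S0 (27.8% to 34.4%). In S3 vs S0 MEL1 alone gave 27 (18 higher and 9 lower), with 43.0% of all genes called. H1 alone gave 20 there (17 higher and 3 lower), with 22.9% of all genes called.

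For m6A in S3 vs S0 the 0 peaks became 5 in H1 alone (2.98%, against 6.09% of all peaks) and 11 in MEL1 alone (6.55%, against 8.80%), and stayed 0 on leaving out 1 preparation. In S4 vs S3 the 4 became 2 without a cell line term, 8 with the preparation block, 2 with thinned IP libraries, 0 with counts summed per gene, 29 without both MEL1 preparations at S4, 78 in H1 alone, 13 in MEL1 alone and 2 to 13 on leaving out 1. In S6 vs S4 the 7 became 3 without a cell line term, 0 summed per gene, 24 without both MEL1 preparations at S4, 51 in H1 alone and 3 to 12 on leaving out 1. In S6 vs S0 the 0 became 1 with counts summed per gene (1.82% of members, against 0.852% of all genes). It became 5 in DESeq2 (2.98%, against 6.03% of all peaks), 13 in H1 alone (7.74%, against 10.8%) and 7 in MEL1 alone (4.17%, against 10.9%). On leaving out 1 it stayed 0. The cause was not tested. The share of all peaks called in the S4 comparisons moved too: it was 3.19% in S4 vs S3 and 4.35% in S6 vs S4 without a cell line term, 7.29% in S4 vs S3 with the preparation block and 1.91% there with thinned IP libraries, and of all genes with summed counts 1.53% in S4 vs S3 and 4.41% in S6 vs S4. In H1 alone it was 46.2% in S4 vs S3 (members 46.4%) and 41.6% in S6 vs S4 (members 30.4%), in MEL1 alone 12.7% in S4 vs S3 (members 7.74%), and without both MEL1 preparations 20.9% and 19.2% (members 17.3% and 14.3%). Leaving out 1 gave 0.927% to 10.1% in S4 vs S3 and 3.31% to 10.3% in S6 vs S4. For the m6A peaks, the fits of 1 line and those without both MEL1 preparations at S4 were chosen after seeing the data.

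With the replicate block, by line and number, 15, 2, 9 and 22 members were called in input in S3 vs S0, S4 vs S3, S6 vs S4 and S6 vs S0, and 0, 2, 6 and 0 peaks in m6A, against 28.1%, 1.17%, 4.23% and 30.8% of all genes and 0.0383%, 5.13%, 5.76% and 0.280% of all peaks. It kept 48 of the 56 and 8 of the 11 changes. The calls not kept were those of LEFTY2, NOG and TGFB3 in S3 vs S0, NOG in S4 vs S3, BMP1 and BMP5 in S6 vs S4, FSTL3 and HIPK3 in S6 vs S0, and the peaks ID2 1301 and GDF11 851 in S4 vs S3 and SMAD5 1601 in S6 vs S4. Correlations of same-numbered libraries between stages were −0.008 to 0.052 in H1 and 0.086 to 0.128 in MEL1. They did not all pass 0.1, so that the numbers were not taken to pair the libraries, and pairing in MEL1 is not excluded. Between IP and input of the same number the correlations ran from −0.154 to 0.045.

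As limits, replicates numbered 2 a line and stage, and a fit that leaves one alone assumes that it varies like the others. The chi-squared statistic per degree of freedom between replicates ran from 1.69 to 15.3 in input and from 2.14 to 36.5 in IP, above the 1 expected from counting alone. Genes without a merged peak have no value, and members with few input counts (9 had under 200) hold few reads in some libraries. The shallow IP libraries of MEL1 at S4 limit what S4 comparisons can show in that line.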
